A study of Arabidopsis thaliana with 87 samples.

Results

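Red parts of leaves and fully red leaves that carry the pigment transgene RUBY behind the 35S promoter were compared here by the length and the strand of their RUBY small RNA. The members are the 13 libraries labelled red parts and the 13 labelled fully red in the Col-0 background, 26 of the 87 libraries in the series and of the 69 with the 35S promoter. A library is a member by its label, and no measured value enters that rule. Both groups share the transgene, 35S::RUBY, the genotype, Col-0, and the source, leaves of plants at an age of 4 weeks, kept at 22 °C under days of 18 h light and 6 h dark. They differ only in the colour class in the label. For reference, values are also given for the 13 libraries of green parts and 11 always red libraries with the same transgene, genotype and age. A further reference is 8 always red libraries with 35S::RUBY in dcl1234, a line mutated in 4 DICER-LIKE genes, of the same age. The dcl1234 libraries come from the events MK072 and MK073. A red parts library carries the same event name and the same number as a fully red library, which gives 13 pairs. The pairs come from 8 transgenic events, of which 4 (MK016 with 3 pairs, MK040, MK041 and MK043) hold several. The labels do not say whether the members of a pair come from 1 plant, how many leaves were pooled, or how the red tissue was cut out, and whether green tissue remained in the red parts was not tested.

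RUBY encodes enzymes that turn tyrosine into the red pigment betalain, so that red tissue is tissue in which the transgene is or was expressed. The 35S promoter of cauliflower mosaic virus is active in most leaf cells. When a plant silences such a transgene, an RNA-dependent RNA polymerase copies its transcripts into double-stranded RNA, and DICER-LIKE enzymes cut that RNA into small RNAs of both strands. In Arabidopsis, DCL4 makes 21 nt small RNAs, DCL2 makes 22 nt small RNAs and DCL3 makes 24 nt small RNAs. The first 2 sizes are known for cutting or blocking messenger RNA, and the 24 nt size for directing DNA methylation. Reads of these and other lengths can also be degradation fragments of the transcript, which lie on the strand of that transcript. The sources used here do not say which of the strands called plus and minus matches the RUBY messenger RNA. Because whole tissue was ground, fewer cells with silencing and less small RNA in each such cell cannot be told apart.

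Each library gave a read count for each of 11 lengths, 18 to 28 nt, on each of the 2 strands, 22 values in all, as reads per 1000000 mapped reads (RPM). Red parts had 4.95 to 30.5 M mapped reads (1 M is 1000000 reads) and fully red leaves 0.905 to 30.7 M, and reads on RUBY ranged from 404 to 631791 per library. Of the 26 libraries, 4 had fewer than 8 M mapped reads: the red parts of MK044 number 3, MK016 number 5 and MK025 number 1, and the fully red library of MK044 number 3, whose file lists 15 of the 22 values. The level of 3 reads lay between 0.0976 and 3.32 RPM. That limit covers counting error only, because reads copied by PCR and not tagged with molecular identifiers need not stem from separate molecules. Among 156 pairs of libraries within a group, a chi-squared test of the counts did not separate 1 pair from sampling noise (p = 0.23). These were the fully red libraries of MK043 number 2 and MK041 number 1. Their labels give different events, so they were kept as 2 libraries, and counting them as 1 ended the call of the 23 nt sum (adjusted p = 0.061) and no other named below. Differences below are red parts minus fully red on the log2(RPM + 1) scale unless a percentage is named, and a fold is the ratio of geometric means of RPM + 1. All tests across groups are two-sided permutation tests, with Benjamini-Hochberg adjustment over the values of 1 kind and a threshold of 0.05 on the adjusted p. Brackets hold the 95% interval. The p-values reflect only how these libraries vary among themselves, and several of them share an event.

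The question the comparison addresses is which lengths and strands of RUBY small RNA are more abundant in the red sectors of a partly red leaf than in a leaf that is red throughout. The total of RUBY small RNA was higher in red parts in 13 of 13 pairs. It ran from 1399 through a median of 3470 to 79188 RPM in red parts, and from 446 through 734 to 2989 RPM in fully red leaves. The groups overlapped: 7 of the 13 red parts libraries lay above every fully red library. The difference was 2.41 [1.26, 3.58], a fold of 5.32 (adjusted p = 0.000245, n = 13 in each group). Within pairs the fold ran from 1.26 in MK042 number 3 to 35.1 in MK025 number 1, with 26.5 in MK016 number 5 and 17.3 in MK040 number 1. The red parts library of MK016 number 5 alone held 52.0% of the RPM by which red parts exceeded fully red leaves, summed over pairs, and together with MK025 number 1 it held 69.1%. Both had fewer than 8 M mapped reads, 7.98 M in MK016 number 5 and 4.95 M in MK025 number 1. They are among the 4 libraries below that depth, so leaving out the 4 or the 2 are overlapping checks. Without the 4 libraries below that depth, the difference of the total was 1.82, and without the red parts of those 2 numbers it was 1.84.

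Of the 22 length and strand values, 15 (68.2%) were higher in red parts and 0 were lower, by the adjusted test and also by the unadjusted one. On the minus strand 11 of 11 lengths were higher (100%), while on the plus strand 4 of 11 were (36.4%): 19, 20, 21 and 22 nt. The remaining 7 plus strand values, 18 nt and 23 to 28 nt, did not pass. EdgeR's quasi-likelihood test on the read counts called 18 values higher and 0 lower, adding 18, 23 and 24 nt of the plus strand.

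**Figure D1:**
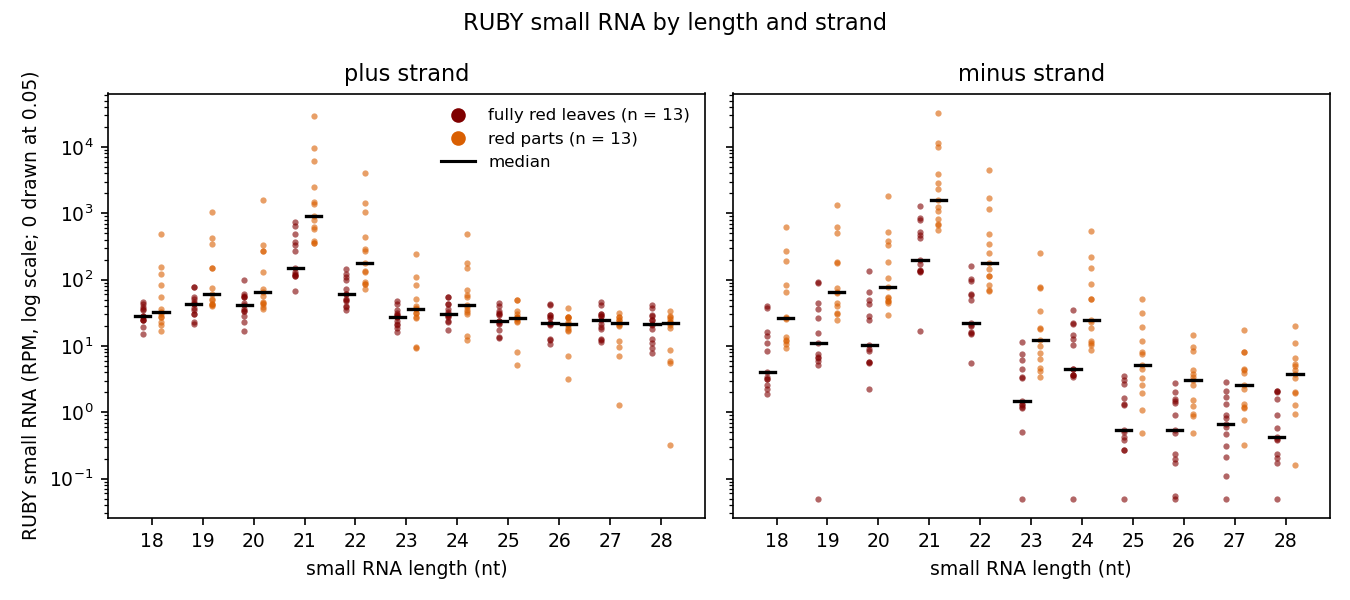
RUBY small RNA in RPM (log scale, with 0 drawn at 0.05) at each length from 18 to 28 nt, plus strand on the left and minus strand on the right. Each point is 1 library, 13 per group, and the bar is the group median. At 21 nt minus the medians are 1596 RPM in red parts and 199 RPM in fully red leaves, while at 26 nt plus they are 21.1 and 22.5 RPM.

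The 21 nt minus strand carried the largest difference of the 22 values. Its level ran from 552 through a median of 1596 to 32768 RPM in red parts, and from 16.6 through 199 to 1284 RPM in fully red leaves. Red parts were above their fully red partner in 13 of 13 pairs, and 7 of them lay above all 13 fully red libraries. The difference was 3.16 [1.77, 4.57], a fold of 8.95 (adjusted p = 0.00044), and 2.37 without the 4 libraries under 8 M mapped reads. The lowest pair was MK042 number 3, with 677 RPM in red parts and 418 RPM in fully red leaves. The highest was MK025 number 1, with 11483 RPM in red parts and 134 RPM in fully red leaves. The 16.6 RPM belongs to the shallow fully red library of MK044 number 3, whose red parts partner had 821 RPM.

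On the plus strand, 21 nt had the largest difference of the 11 lengths. It ran from 351 through 921 to 29324 RPM in red parts, and from 68.5 through 149 to 728 RPM in fully red leaves. Again 13 of 13 pairs were higher, and 8 red parts libraries lay above every fully red library. The difference was 2.75 [1.46, 4.05], a fold of 6.72 (adjusted p = 0.00044), and 1.99 without the 4 shallow libraries.

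The 22 nt size class rose on both strands, in 13 of 13 pairs each. On the minus strand it ran from 66.7 through 180 to 4462 RPM in red parts and from 5.53 through 22.3 to 158 RPM in fully red leaves. On the plus strand it ran from 71.3 through 180 to 4049 RPM in red parts and from 35.4 through 60.4 to 144 RPM in fully red leaves. The red parts medians were alike on the strands, and the fully red medians were not. The differences were 3.00 [1.68, 4.33] for 22 nt minus (adjusted p = 0.00044) and 2.03 [0.95, 3.13] for 22 nt plus (adjusted p = 0.00077). Without the 4 shallow libraries they were 2.26 and 1.49. In both, 7 red parts libraries lay above all fully red libraries.

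At 24 nt the minus strand passed and the plus strand did not. The mean excess of red parts over fully red leaves was 82.7 RPM on the minus strand and 57.9 RPM on the plus strand. The minus strand ran from 8.74 through 24.7 to 547 RPM in red parts and from 0 through 4.47 to 34.4 RPM in fully red leaves, higher in 12 of 13 pairs. Its difference was 2.34 [1.03, 3.67] (adjusted p = 0.0018), and 1.71 without the 4 shallow libraries. The plus strand ran from 12.1 through 41.9 to 484 RPM in red parts and from 17.3 through 30.5 to 54.2 RPM in fully red leaves, higher in 9 of 13 pairs. Its difference of 0.70 [-0.15, 1.57] did not pass (adjusted p = 0.14). Without the pair of MK044 number 3, where the red parts had 12.1 and the shallow fully red library 54.2 RPM, it was 0.93 (adjusted p = 0.036), and edgeR gave 1.43 (adjusted p = 0.0060). Of 14 sums over strands or lengths, 10 (71.4%) were higher and 0 lower, and between 7 and 10 were higher under the alternatives. The 18 nt sum ended its call in 3 of 11 alternatives and in 5 of 21 cases in which a pair or an event was left out. Here and below, the 21 cases count an event with 1 pair both as a pair and as an event. Both strands of 24 nt added together differed by 1.14 [0.19, 2.11] (adjusted p = 0.028), a call that ended under ranks, with 1 mean per event and without the MK016 number 5 and MK025 number 1 red parts (0.68, adjusted p = 0.11). Leaving out a pair or an event ended it in 8 of 21 cases.

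At the shorter lengths, 18 to 20 nt, 3 of 3 minus strand values and 2 of 3 plus strand values were higher in red parts. On the minus strand, 19 nt differed by 2.84 [1.37, 4.32] and 20 nt by 2.83 [1.47, 4.20], and both were higher in 13 of 13 pairs. With 21 and 22 nt of the minus strand, these made up the 4 largest differences. Fully red medians were 11.2 RPM at 19 nt minus and 10.3 RPM at 20 nt minus, against 65.4 and 76.9 RPM in red parts. The 18 nt minus value differed by 2.37 [1.03, 3.73]. On the plus strand, 19 nt differed by 1.30 [0.38, 2.24] (adjusted p = 0.0071) and 20 nt by 1.33 [0.35, 2.33] (adjusted p = 0.010), and 18 nt by 0.76 [-0.05, 1.58] (adjusted p = 0.090). The call at 20 nt plus ended with 1 mean per event (adjusted p = 0.053) and without the event MK040 (adjusted p = 0.052).

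The values that moved least were the plus strand at 23 nt and above. The 4 smallest differences in size were 25 nt plus at -0.06 [-0.63, 0.49], 26 nt plus at -0.28 [-0.87, 0.30], 28 nt plus at -0.44 [-1.30, 0.39] and 23 nt plus at 0.49 [-0.26, 1.24]. Next to them came 27 nt plus at -0.50 [-1.19, 0.17]. Their intervals hold 0 but reach as far as -1.30 at 28 nt plus and 1.24 at 23 nt plus, so equal levels were not shown. Adjusted p for these 5 ran from 0.19 to 0.83.

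The 25 nt plus value ran from 5.16 through 26.7 to 49.0 RPM in red parts and from 13.4 through 23.96 to 43.7 RPM in fully red leaves. Red parts were higher in 5 of 13 pairs. The 26 nt plus value ran from 3.22 through 21.1 to 37.1 RPM in red parts and from 10.9 through 22.5 to 42.8 RPM in fully red leaves, higher in 4 of 13 pairs. The 28 nt plus value ran from 0.322 through 22.1 to 33.5 RPM in red parts and from 7.74 through 21.1 to 41.6 RPM in fully red leaves, also higher in 4 of 13 pairs. At 26, 27 and 28 nt plus, 0 red parts libraries lay above every fully red library, against 8 at 21 nt plus. The lowest red parts library at each of these lengths was MK044 number 3, which had fewer than 8 M mapped reads. The 3 red parts libraries of that depth had 0.322 to 8.68 RPM at 28 nt plus, and the other 10 had 5.50 to 33.5 RPM. Without the 4 shallow libraries the differences were 0.03 at 25 nt, -0.02 at 26 nt and -0.01 at 28 nt plus. The part of depth in the lower values was not tested. Leaving out the event MK040 made 27 nt plus pass as lower in red parts (-0.78, adjusted p = 0.048).

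On the minus strand the same long lengths were rare and higher in red parts. The 25 nt minus value had medians of 5.11 RPM in red parts and 0.536 RPM in fully red leaves, and differed by 1.89 [0.93, 2.85]. The 23 nt minus value had medians of 12.1 and 1.48 RPM, and differed by 2.43 [1.26, 3.61]. The 26, 27 and 28 nt minus values differed by 1.21, 1.17 and 1.41, with fully red medians of 0.423 to 0.655 RPM. Such levels are near that of a few reads in the shallow libraries, and the size of these differences follows the pseudocount: at 26 nt minus it was 0.34 with 10 RPM added and 2.12 with 0.1 RPM added. All 3 passed under each of the alternatives.

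**Figure D2:**
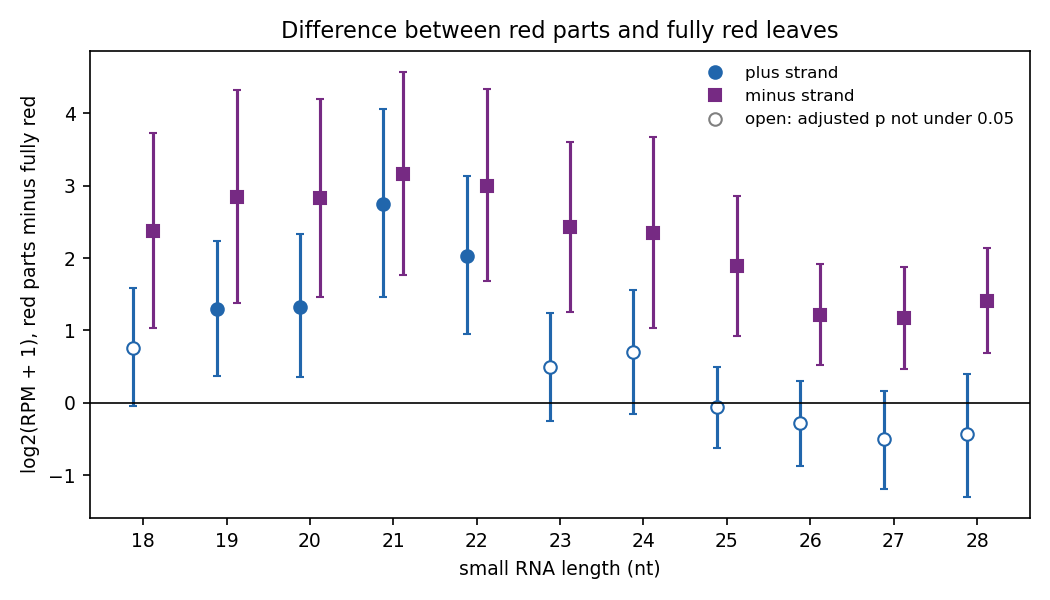
Difference between red parts and fully red leaves in log2(RPM + 1) at each length, circles for the plus strand and squares for the minus strand, with 95% intervals. Open symbols did not pass at an adjusted p of 0.05. The whole interval lies above 0 at 11 of 11 lengths on the minus strand and at 19 to 22 nt on the plus strand. At 18, 23 and 24 nt plus the difference is above 0, but its interval holds 0.

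Summed over 25 to 28 nt, the plus strand had 86.1 ± 35.8 RPM in red parts and 98.0 ± 38.9 RPM in fully red leaves (mean ± SD, n = 13 each), and red parts were higher in 5 of 13 pairs. The minus strand had 25.02 ± 26.3 RPM in red parts and 3.91 ± 3.59 RPM in fully red leaves, and red parts were higher in 12 of 13 pairs. For reference, at these lengths the 8 always red libraries of dcl1234 had 126 ± 13.1 RPM (plus) and 4.18 ± 2.31 RPM (minus). The 11 always red libraries in Col-0 had 71.8 ± 34.2 RPM (plus) and 1.04 ± 0.268 RPM (minus). In dcl1234 the mean level on the plus strand lay between 30.7 and 37.8 RPM at each of the 11 lengths, highest at 21 nt. Green parts of the same events and numbers had 173 ± 148 RPM on the plus strand and 130 ± 86.0 RPM on the minus strand over 25 to 28 nt (n = 13). These groups were not tested against red parts here.

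**Figure D3:**
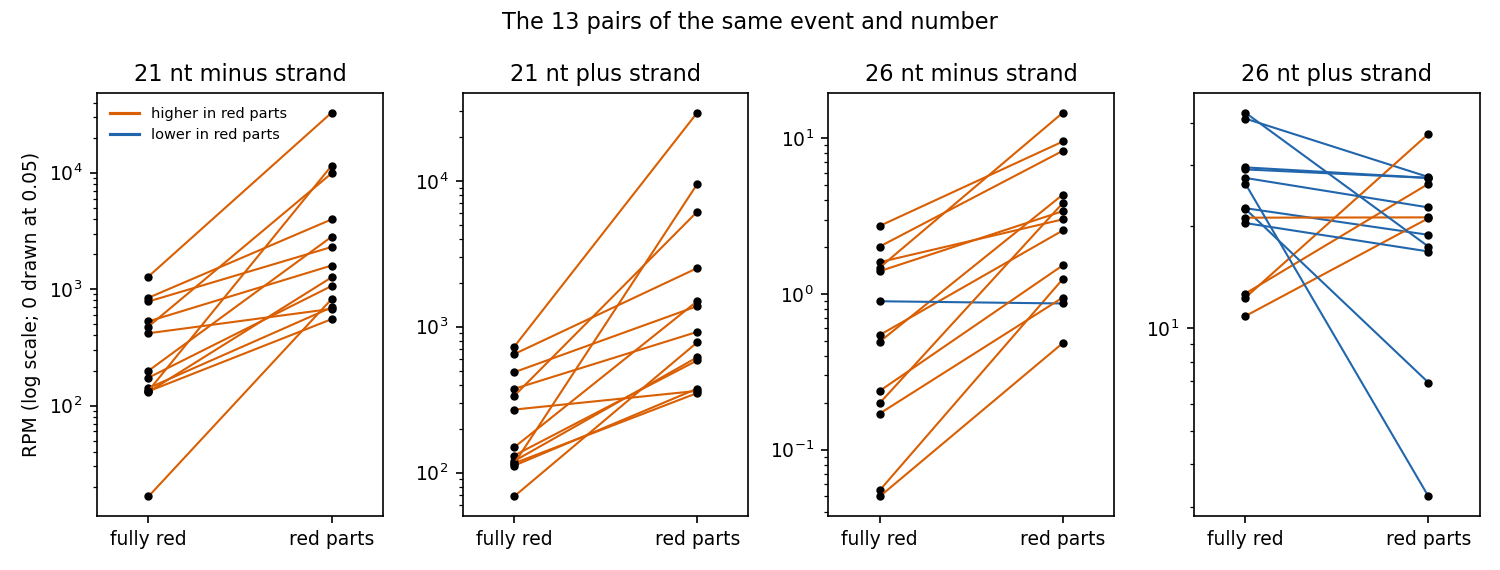
Level in RPM (log scale, each panel with its own range) of 21 nt minus, 21 nt plus, 26 nt minus and 26 nt plus in the 13 pairs that share an event and a number. Lines join the members of a pair, orange where red parts are higher and blue where they are lower. Both 21 nt values rise in 13 of 13 pairs, 26 nt minus rises in 12 and 26 nt plus in 4.

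Whether lengths rose by unequal amounts was tested by the ratio of each value to 21 nt minus in the same library. Of the 21 ratios, 18 (85.7%) were lower in red parts and 0 were higher. With 1 RPM added, 21 nt minus has the largest difference of the 22 values. That choice of reference, made with earlier results known, therefore fixed the direction of all 21 ratios on that scale. The sizes are read here, and the calls do not speak to direction. All 11 plus strand values were among the 18 lower ratios, from 21 nt plus at -0.41 [-0.83, -0.05] (adjusted p = 0.025) to 27 nt plus at -3.66. The call for 21 nt plus ended with 1 mean per event (adjusted p = 0.11) and in 5 of 21 cases in which a pair or an event was left out. On the minus strand, 24 nt had a ratio lower by 0.82, a fold of 0.567 (adjusted p = 2.62e-05). The 3 ratios that did not pass were those of 19, 20 and 22 nt minus. For 22 nt minus the difference was -0.16, with an adjusted p of 0.24 between groups and 0.038 within pairs. The added 1 RPM compresses rare values: with 0.1 RPM added, 18, 23, 25 and 28 nt minus no longer passed, and with 10 RPM added all 21 ratios did. The 19 nt minus ratio turned to 0.0027 with 0.1 RPM added (adjusted p = 0.99).

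The share of minus strand reads among reads of 1 length does not depend on the mapped total. It was higher in red parts at 11 of 11 lengths (100%). At 23 nt it was 31.6% ± 12.3 in red parts and 10.4% ± 9.27 in fully red leaves (SD, n = 13 each). At 18 nt it was 45.2% ± 11.4 and 22.2% ± 15.6, and at 24 nt 42.8% ± 10.1 and 21.9% ± 14.9. At 22 nt it was 50.7% ± 3.29 and 34.9% ± 11.6, a difference of 15.8 percentage points [8.93, 22.7] (adjusted p = 0.00040).

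The smallest difference in strand share was at 21 nt, the length with the most reads. There the minus strand held 61.2% ± 5.09 of reads in red parts and 54.6% ± 11.1 in fully red leaves, 6.63 points apart [0.70, 13.3] (adjusted p = 0.023), and red parts were higher in 12 of 13 pairs. The difference no longer passed with 1 mean per event (adjusted p = 0.10), without MK041 number 1 (adjusted p = 0.068), without the event MK041 (adjusted p = 0.13) and without the event MK043 (adjusted p = 0.080). The fully red library of MK044 number 3 lay apart at 19.5% of its 77 reads of 21 nt (Wilson 95% interval 12.2 to 29.7%), and the other 12 fully red libraries lay between 52.3 and 63.8%. In red parts, the 3 libraries under 8 M mapped reads had 51.3 to 54.7%, below the 61.1 to 67.2% of the other 10. MK016 number 5 was the pair in which red parts were lower, at 52.8% against 63.8%.

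**Figure D4:**
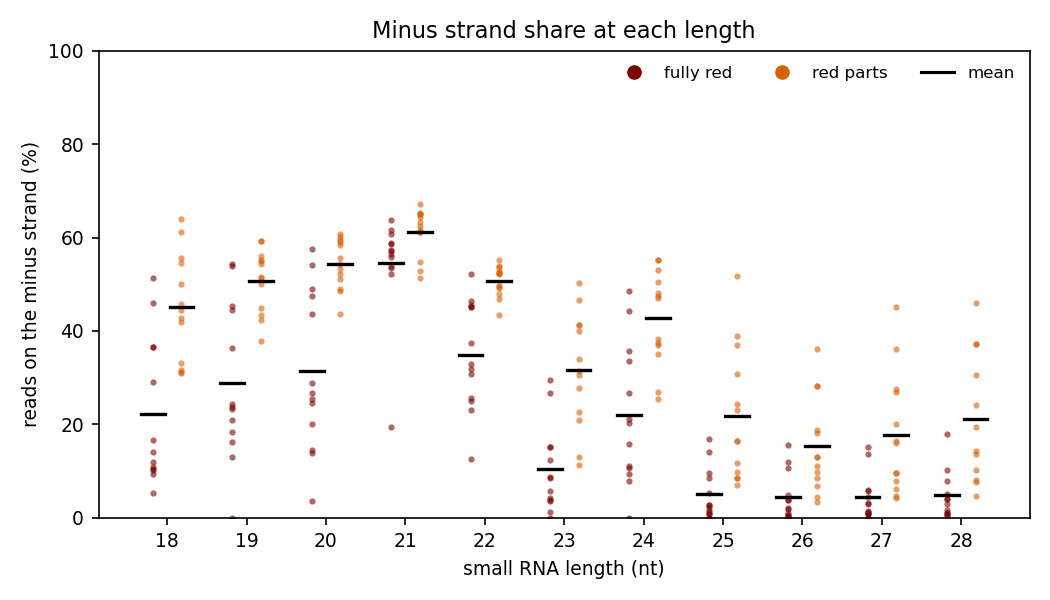
Share of reads on the minus strand (%) among reads of each length. Each point is 1 library with at least 10 reads of that length, and the bar is the group mean. In fully red leaves the mean falls from 54.6% at 21 nt to 10.4% at 23 nt, and in red parts from 61.2% to 31.6%.

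The length make-up of each strand was then compared without regard to its level. Of 22 length shares, 1 was higher (4.55%) and 10 were lower (45.5%) in red parts. On the plus strand, 21 nt made up 65.4% ± 9.68 of reads in red parts and 39.8% ± 14.8 in fully red leaves, a difference of 25.6 points [15.4, 35.8] (adjusted p = 0.00029). It was higher in 13 of 13 pairs, and 9 red parts libraries lay above all fully red libraries. The share of 22 nt was 12.0% ± 1.21 against 11.2% ± 0.805 and did not pass (adjusted p = 0.094). It did without the 4 shallow libraries, by 1.04 points (adjusted p = 0.0042), and without the pair of MK044 number 3, by 0.90 points. The other 9 lengths took up smaller shares of the plus strand in red parts. Shares of a strand add up to 100%, so a rise at 21 nt lowers the rest together, and 19 and 20 nt plus, whose levels were higher, are among the 9. The 24 nt share was 2.61% against 6.10%, the 18 nt share 2.38% against 5.21% and the 28 nt share 1.35% against 4.07%, each lower in 13 of 13 pairs.

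On the minus strand, 10 of the 11 length shares did not pass. Its 21 nt share was 78.1% ± 3.42 in red parts and 75.4% ± 4.99 in fully red leaves, 2.69 points apart [-0.71, 6.18] (adjusted p = 0.18). Its 22 nt share was 9.43% ± 1.11 and 10.1% ± 3.28. The 24 nt share passed, lower in red parts at 1.36% ± 0.233 against 1.86% ± 0.604, a difference of -0.50 points [-0.82, -0.14] (adjusted p = 0.016), in 11 of 13 pairs. That call ended with 1 mean per event (adjusted p = 0.21) and without the events MK016, MK041 or MK043 (adjusted p = 0.079, 0.072 and 0.063). Within pairs, the 18 nt share also passed as lower (1.54% against 2.34%, adjusted p = 0.049 within pairs and 0.21 between groups). With at least 50 reads required on the strand, which left out the fully red library of MK044 number 3, the 27 nt share passed as lower, by 0.079 points (adjusted p = 0.012).

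**Figure D5:**
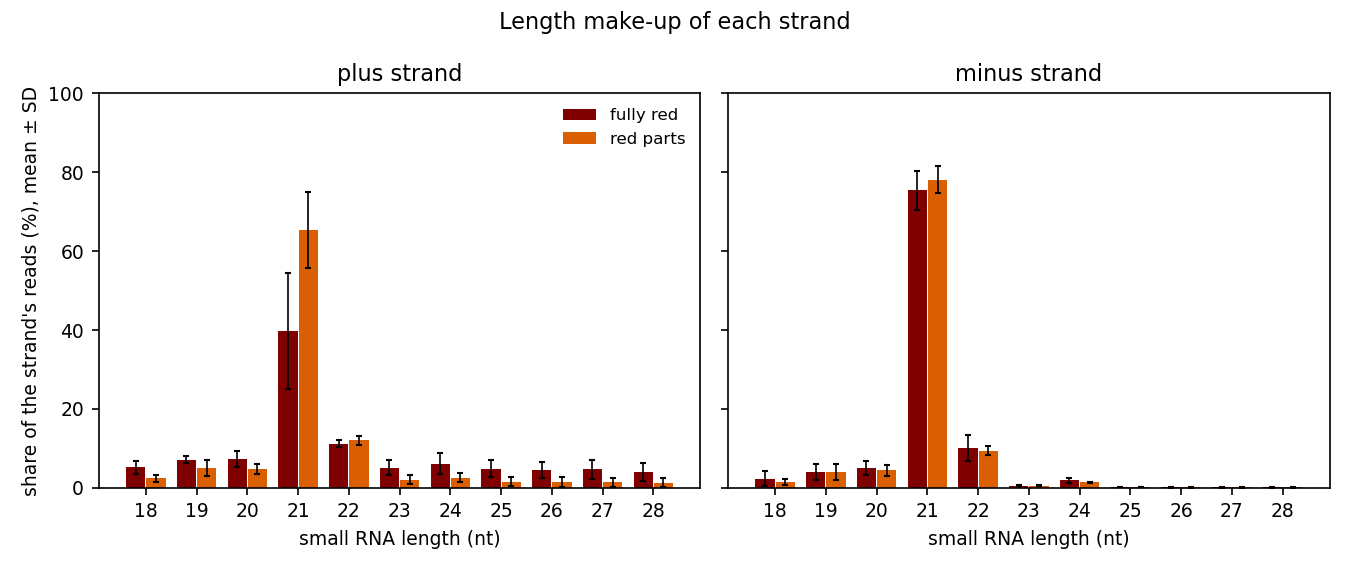
Share of each strand's reads (%) that have each length, plus strand on the left and minus strand on the right, as mean ± SD over 13 libraries per group. On the plus strand 21 nt stands at 65.4% in red parts and 39.8% in fully red leaves, and on the minus strand at 78.1% and 75.4%.

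The excess itself was taken as red parts minus fully red in RPM within each pair. Summed over pairs, 21 nt minus held 44.1% of it, 21 nt plus 34.6%, 22 nt minus 5.82% and 22 nt plus 5.05%. Together 21 and 22 nt made up 89.6%, 18 to 20 nt 8.51%, 24 nt 1.25%, and 25 to 28 nt of the plus strand -0.11%. The minus strand held 56.2%. These sums weigh the pair of MK016 number 5 most. Without the MK016 number 5 and MK025 number 1 red parts, 21 nt minus held 48.1%, 21 nt plus 28.1% and the minus strand 62.7%.

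Beside the excess stand the green parts of the same event and number. The median share of 21 nt minus was 48.1% of the excess and 47.7% of all RUBY small RNA in green parts. That of 21 nt plus was 28.6% and 28.4%. Elsewhere the medians were less alike. For 24 nt, both strands together, they were 1.26% of the excess and 1.80% of green parts. For 25 to 28 nt plus they were -0.40% and 0.49%, and for 18 to 20 nt 7.64% and 8.24%. For 21 and 22 nt together the excess had the higher median, 91.8% against 88.1%. Some single pairs lay further apart. Over pairs, 21 nt minus ran from 41.3 to 86.2% of the excess and from 40.1 to 53.2% of green parts. For 21 nt plus, MK041 number 1 had 24.8% and 39.6%, and MK044 number 3 had 42.6% and 27.5%. The green parts library of MK041 number 1 had 3.50 M mapped reads. Red parts and fully red libraries of MK044 number 3 were also below 8 M. The median minus strand share was 63.5% of the excess and 60.8% of green parts. In fully red leaves 21 nt minus had a median share of 30.5% and the minus strand one of 38.6%. The share of the minus strand was lower in the excess than in green parts in 2 of 13 pairs, MK016 number 5 (52.6% and 62.9%) and MK025 number 1 (55.3% and 62.8%). In every other pair it was higher in the excess. In size, the excess was a median of 11.3% of the green parts total, from 0.728% in MK042 number 3 to 292% in MK016 number 5, whose red parts had 79188 RPM and whose green parts had 26078 RPM. No test was made of these shares, and the excess and the fully red values share libraries.

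Red parts and fully red leaves of the same event and number tended to be high together. Over the 13 pairs, the totals on the log2 scale had a Pearson r of 0.62 (permutation p = 0.023, adjusted over 2 relations 0.046) and a Spearman rho of 0.67 (permutation p = 0.015, adjusted 0.030). The relation rested on the ends of the range: without MK016 number 5 and MK040 number 2, the pairs farthest from the median fully red total, r was 0.35 (permutation p = 0.29). It also no longer passed without the pairs that hold a library under 8 M mapped reads (r = 0.57, adjusted permutation p = 0.11) or without the MK016 number 5 and MK025 number 1 red parts (r = 0.60, adjusted permutation p = 0.053). Totals of red parts and green parts had r = 0.44 (permutation p = 0.13) and rho = 0.52 (permutation p = 0.070), and without the farthest pairs, MK043 number 2 and MK044 number 3, r was 0.23 (permutation p = 0.50). This relation passed without the pairs that hold a shallow library (r = 0.77, adjusted permutation p = 0.030) and without the MK016 number 5 and MK025 number 1 red parts (r = 0.71, adjusted permutation p = 0.029). Pairs of the same event are not independent of each other, and the 13 pairs stand for 8 events.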

How the data were processed

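Small RNA libraries of 4-week-old Arabidopsis leaves were made by the authors from size-enriched RNA extracted with TRIzol, with the TruSeq Small RNA kit, per the labels' protocols. The deposited files give the read count on the whole transgene for each length and strand, without normalization, and the RPM that the authors computed as that count per 1000000 mapped reads, which was checked at a relative tolerance of 1e-06. The submitters' processing notes name TAIR10. The aligner, the trimming and the sequences behind the mapped total are not given in the sources used here. Combinations that a file does not list were set to 0.

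RPM values were compared as log2(RPM + 1), shares as percentages in libraries with at least 10 reads. Two-sided permutation tests of group means used 100000 resamples (the smallest p is 1e-05), and intervals hold the shifts not rejected at 0.05. Adjustment ran over 22 levels, 14 sums, 21 ratios, 11 strand shares, 22 length shares and 2 relations. All 22 values are accounted for, with 21, 22 and 24 nt, the total, and the 4 largest and 4 smallest differences in detail. The members, values and tests were chosen with earlier results of these data known. The test was also tried on simulated data. How those data were built and what came out are not given here, so that trial does not vouch for the p-values. EdgeR's quasi-likelihood test (edgeR 4.0.16, R 4.3.3) used mapped reads as library size, and the rest Python 3.11.15, numpy 2.4.6, scipy 1.17.1 and pandas 2.3.3.

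Pairs share the transgenic event and the number in the labels. After group means were removed, the profiles of pair members correlated above 0.1 in 10 of 13 pairs (median 0.43, lowest -0.71), and 3 of the 13 red parts libraries correlated most with their own partner, so the pairing rests on the shared event in the labels. Sign flips within pairs were the paired alternative, for which 0.000244 is the smallest p. Other alternatives were a pseudocount of 0.1 or of 10 RPM, zero in place of levels under 1 RPM, scaling to mapped reads off the transgene, ranks, 1 mean per event, a minimum of 50 reads for shares, and leaving out shallow libraries, the MK016 number 5 and MK025 number 1 red parts, each pair or each event. Counting the 2 alike fully red libraries as 1 was added after seeing the data.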

Additional observations from a re-analysis of the deposited data

Results flagged for a closer look

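The plus strand at 26 to 28 nt moved in opposite directions in some events with several pairs. Both pairs of MK040 had higher levels in red parts, while all 3 pairs of MK016 had lower ones. At 26 nt plus the mean log2 difference was 1.20 in MK040 and -0.35 in MK016, 1.56 apart. At 27 nt plus it was 1.04 in MK040 and -0.57 in MK016, 1.61 apart. At 28 nt plus it was 1.25 in MK040 and -0.65 in MK016, 1.90 apart. At 27 nt plus both pairs of MK043 were also lower in red parts, with a mean of -0.14, 1.18 apart from MK040. These differences between events were not tested, and the red parts of MK016 number 5 are among the libraries under 8 M mapped reads.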

How the results depend on the processing

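The number of levels higher in red parts was 14 to 18 against 15, 15 also in the replicate block (sign flips within pairs), which changed no call but those of the 22 nt minus ratio and the 18 nt minus share given above. All 11 minus strand levels and 19, 21 and 22 nt plus passed under each alternative run. Without the event MK040, 1 level was lower (otherwise 0, range 0 to 1). The number of length shares higher in red parts was 2 under ranks and 2 without libraries under 8 M (1 to 2 when pairs or events were left out). The 25 nt plus difference turned to 0.692 under ranks (in ranks), 0.0276 without libraries under 8 M and 0.0413 in edgeR, and ran from -0.290 to 0.139 when pairs or events were left out. The r of red with fully red totals was 0.568 without pairs holding a library under 8 M, 0.596 without the MK016 number 5 and MK025 number 1 red parts, and 0.425 to 0.733 when pairs or events were left out. That of red with green parts was 0.768, 0.707 and 0.333 to 0.603. The sum of 23 nt (adjusted p = 0.0498) lost its call in 6 of 11 alternatives and in 15 of 21 cases of a pair or event left out. The causes were not tested. In the fully red library of MK044 number 3, values under 3.32 RPM rest on fewer than 3 reads.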
